A study of Mus musculus with 12 samples.

Results

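The replication-dependent histone genes encode the linker histone H1 and the core histones H2A, H2B, H3 and H4. They were taken here as every gene model whose symbols include one starting with Hist1h, Hist2h, Hist3h or Hist4h. By symbol, 58 such genes had a value above 0 in some group, of 23076 gene symbols in all: 6 of H1, 14 of H2A, 15 of H2B, 11 of H3 and 12 of H4. Of these, 45 belong to the Hist1 cluster on chromosome 13, 9 to the Hist2 cluster on chromosome 3, 3 to the Hist3 cluster on chromosome 11 and 1 to the Hist4 locus on chromosome 6. The study's 3 tables held 53, 54 and 50 member models with a value, of 30995, 31041 and 31042 models. Cuffdiff tested 20, 19 and 17 of them and left the others untested at very low values.

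Replication-dependent histone mRNAs are made mainly in S phase, when new DNA is packed into nucleosomes, and end in a conserved stem-loop in place of a poly(A) tail. The stem-loop binding protein SLBP and the U7 small nuclear ribonucleoprotein direct the cut that forms this end. In cells that have stopped dividing, such as neurons, some of these genes also give polyadenylated transcripts that run past the stem-loop, and a library selected for poly(A) tails captures mainly RNA of that kind.

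RNA came from the frontal cortex of 12 male F1 hybrid mice of the strains C57Bl/6 and 129/SvlmJ, aged 14 weeks, with 4 animals in each group. The groups were wild type (WT), Grin1 knockdown (GluN1) and Grin1 knockdown with Cre rescue (GluN1Cre), where Grin1 encodes the obligatory subunit of the NMDA-type glutamate receptor. Tamoxifen was given to all animals, starting at 10 weeks (a gavage dose of 6 mg, then chow supplying about 14 mg over the treatment), and polyadenylated RNA was sequenced. Each table compares a pair of groups and holds 1 FPKM value per group (a fragment count divided by transcript length and by the size of the library) with the authors' Cuffdiff test. The labels do not name the driver of Cre. As the rescue is the one group named for Cre, Cre exposure and Grin1 restoration cannot be told apart. The files hold no values per animal, no spread between animals and no read depth, and the tables were assembled and normalised separately. A model is called changed here at p under 0.05 and q under 0.10, the threshold of the series' design. Grin1 itself stood at 138 FPKM in WT and 56.7 FPKM in GluN1 in the first table, at 65.7 FPKM in GluN1 and 86.7 FPKM in GluN1Cre in the second, and at 138 FPKM in WT and 78.0 FPKM in GluN1Cre in the third, and was called in each.

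The 3′ ends of the members were read from the GENCODE M21 transcripts of GRCm38, because they bear on which members a poly(A) library can hold. The stem-loop was searched on the transcript strand as GGNNCT followed directly by TTTN and AGNNCC. It was present in annotated transcripts of 37 of the 58 genes and in 52 of 58725 other protein-coding transcripts (0.0885%). Transcripts that end at the coding sequence cannot show it, so its absence here says only that these letters are not in the annotated transcript. The sequences below are those of the highest single-gene members of their class that have one, of Hist2h4 and of both members of the called Hist1h1e,Hist1h2be model, with the stem arms in capitals and 5 bases on each side.
Hist1h1c (chr13:23739512-23739527, plus strand): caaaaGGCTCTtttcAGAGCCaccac
Hist1h1e (chr13:23621782-23621797, minus strand): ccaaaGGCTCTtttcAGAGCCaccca
Hist1h2be (chr13:23585531-23585546, minus strand): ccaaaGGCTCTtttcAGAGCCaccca
Hist3h2ba (chr11:58949349-58949364, plus strand): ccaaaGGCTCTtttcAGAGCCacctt
Hist3h2a (chr11:58955172-58955187, plus strand): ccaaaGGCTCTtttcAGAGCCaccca
Hist2h3c1 (chr3:96247327-96247342, plus strand): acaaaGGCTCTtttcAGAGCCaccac
Hist1h4i (chr13:22040966-22040981, minus strand): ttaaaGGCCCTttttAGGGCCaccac
Hist2h4 (chr3:96262939-96262954, minus strand): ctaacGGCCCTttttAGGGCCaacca
The H1, H2A, H2B and H3 members shown share the same stem arms, and the H4 members carry another pair. The annotated transcript of Hist1h1c runs 840 bases past its stem-loop, that of Hist3h2a 1643 bases and that of Hist2h4 1257 bases.

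Members tested for GluN1 against WT were more often annotated with such long ends than untested ones. Among the 22 genes in tested models, 16 had a stem-loop, which their transcripts ran past by a median of 577.5 bases (range 35 to 2010), and 13 of these ran past it by at least 100 bases. Among the 36 other genes, 21 had a stem-loop, which their transcripts ran past by a median of 42 bases (range 3 to 4884), and 9 ran past it by at least 100 bases. A poly(A) signal (AATAAA or ATTAAA in the last 50 bases) was found in 10 of the 22 and in 5 of the 36. These counts describe the annotation, and the 100-base limit was chosen after the values were seen. The median longest annotated transcript was 897 bases for the tested genes and 496.5 bases for the others. At the same FPKM a longer transcript gives more fragments. A long end and an easier entry into testing therefore cannot be told apart here. The ends and lengths are those of the annotation, and the authors' assembled models can differ from them. The tested Hist1h4d model, for example, ended at chr13:23581913, before its annotated stem-loop, which starts at chr13:23581950. Members without an annotated stem-loop also had substantial levels: the Hist1h2bc transcript is spliced, and the Hist2h2be transcript of 2620 bases ends with a poly(A) signal.

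In WT cortex, histone RNA in these libraries came mostly from a few members. Per length, the summed level of all member models in WT was 98.5 FPKM, of which the 5 highest models made up 80.8%. These 5 include a model at 7.71 FPKM in WT that merges the H2A gene Hist2h2ac with Bola1, which is no histone gene. The sum and this share may thus hold RNA of Bola1. H2B models gave 55.1% of the sum. The highest was Hist3h2ba, an H2B gene of the Hist3 cluster (chr11:58948920-58949533), at 29.2 FPKM in WT. Hist1h2bc, an H2B gene at chr13:23684199-23692908, followed at 21.7 FPKM, and Hist3h2a, an H2A gene at chr11:58954685-58956830, at 14.8 FPKM. The linker histone gene Hist1h1c (chr13:23738808-23740367) stood at 6.16 FPKM, the highest H4 gene, Hist1h4i, at 2.82 FPKM, and the highest H3 gene, Hist2h3c1, at 1.54 FPKM. Histone genes are near-identical in their coding sequence, and how the authors' counting treated reads that fit several copies is not given in the sources used here, so the split between copies is uncertain. Strandedness is not given there either, so reads of overlapping and antisense genes cannot be told apart.

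In the knockdown, 2 member models rose and none fell by the authors' test. Linker histone gene Hist1h1c stood at 6.16 FPKM in WT and 10.5 FPKM in GluN1, 1.70-fold higher (log2 0.77, q = 0.00456 in the authors' deposited table). The model that merges the linker histone gene Hist1h1e (chr13:23620629-23622558) with the H2B gene Hist1h2be (chr13:23583670-23621124) stood at 1.16 FPKM in WT and 1.92 FPKM in GluN1, 1.65-fold higher (log2 0.73, q = 0.00833 in the authors' deposited table). The merged model does not say which of its genes carried the difference. The count of 2 of 20 tested member models compares with 2.52% of all 18417 tested models called, 1.66% higher and 0.858% lower.

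Most other members were higher in GluN1 without passing the threshold. At an unadjusted p under 0.05, 7 of the 20 were higher and none lower, beside 4.75% of all tested models higher and 3.17% lower. The log2 fold was above 0 in 19 of 20 member models (95.0%), beside 48.8% of all tested models and 55.7% of those with a mean FPKM under 5. The median log2 fold was 0.61 over the members and -0.0033 over all tested models. Since near-identical copies share reads, the members are not independent of each other. Hist1h2bn, Hist1h4d and Hist1h4j were tested only in the comparisons that include GluN1, where GluN1 was the higher group. For them, entry into testing can itself favour a higher GluN1 value.

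**Figure D1:**
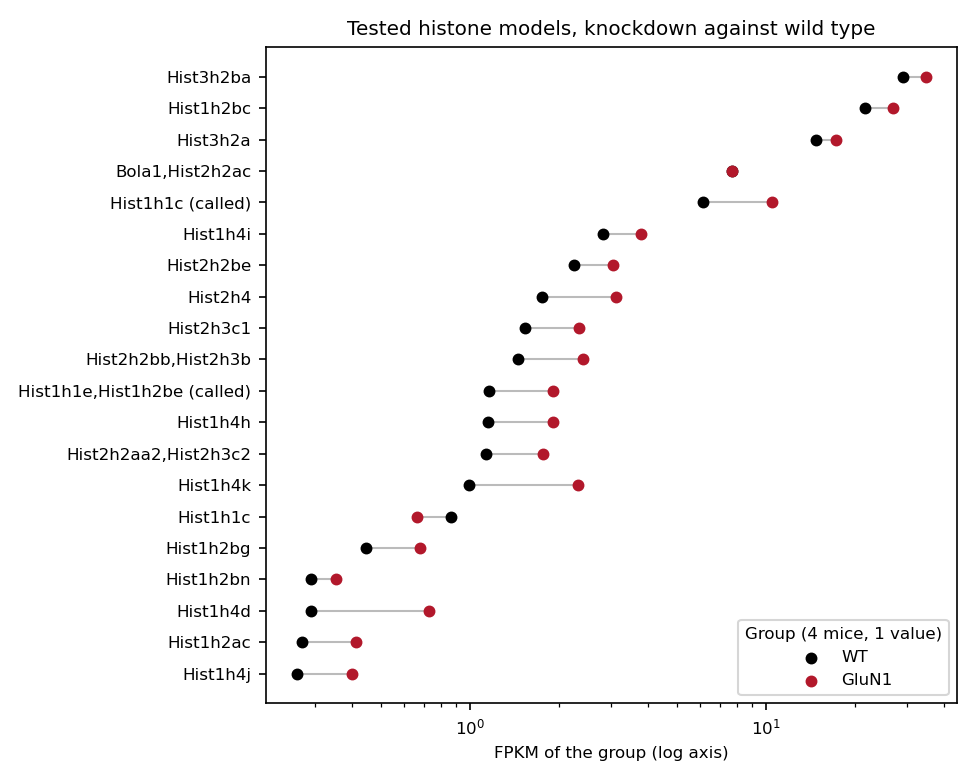
FPKM of each of the 20 tested histone models in WT (black) and in the Grin1 knockdown, GluN1 (red), on a log axis; each point is the authors' single value for a group of 4 mice, so no error bar can be drawn. The GluN1 value lies to the right of the WT value for 19 models, and the exception is a second, low model carrying the symbol Hist1h1c.

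Beyond the called models, the H1 class held little. A second assembled model carrying the symbol Hist1h1c stood at 0.862 FPKM in WT and 0.660 FPKM in GluN1 (log2 -0.39), the only tested member with a log2 fold below 0 in this comparison. It is low beside the first Hist1h1c model and has the same locus. Its model number falls among those of minus-strand genes, while Hist1h1c lies on the plus strand. It may thus be an antisense model and no Hist1h1c transcript, though its strand is not given. Summed over 6 models, H1 stood at 7.11 FPKM in WT and 11.4 FPKM in GluN1 (log2 0.68). The first Hist1h1c model alone made up 6.16 FPKM of this sum in WT and 10.5 FPKM in GluN1. Over the 2 tested H1 models, the median log2 fold was 0.19.

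H2A and H2B, which pair as dimers in the nucleosome, held the 3 most abundant members, with log2 folds of 0.23 to 0.31. Hist3h2ba stood at 29.2 FPKM in WT and 34.8 FPKM in GluN1 (log2 0.25). Hist1h2bc stood at 21.7 FPKM in WT and 26.9 FPKM in GluN1, with a log2 fold of 0.31 (p = 0.00715, q = 0.207 in the authors' deposited table). Hist3h2a stood at 14.8 FPKM in WT and 17.4 FPKM in GluN1 (log2 0.23). None of the 3 passed the threshold. Hist2h2be, which encodes H2BE, a variant known from olfactory sensory neurons, stood at 2.26 FPKM in WT and 3.05 FPKM in GluN1, with a log2 fold of 0.44 (p = 0.0193, q = 0.376 in the authors' deposited table). Hist1h2ac, an H2A gene, stood at 0.270 FPKM in WT and 0.413 FPKM in GluN1, with a log2 fold of 0.62 (p = 0.0292, q = 0.477 in the authors' deposited table). The low H2B gene Hist1h2bg stood at 0.445 FPKM in WT and 0.676 FPKM in GluN1 (log2 0.60). Hist1h2bn stood at 0.290 FPKM in WT and 0.353 FPKM in GluN1 (log2 0.28). All 7 tested single-gene models of H2A and H2B had log2 folds above 0. The H2A gene Hist2h2ac is merged with Bola1, a gene of iron-sulfur metabolism that is no histone, and that model stood at 7.71 FPKM in WT and 7.73 FPKM in GluN1.

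H4 and H3, which pair with each other in the nucleosome core, were low in WT and had larger folds than the most abundant H2A and H2B members. Low H2A and H2B members such as Hist1h2ac and Hist1h2bg overlapped them, so class and level cannot be told apart. Hist1h4i stood at 2.82 FPKM in WT and 3.78 FPKM in GluN1 (log2 0.43). Hist2h4 stood at 1.75 FPKM in WT and 3.12 FPKM in GluN1, with a log2 fold of 0.83 (p = 0.00825, q = 0.228 in the authors' deposited table). The second table gives its GluN1 level as 2.04 FPKM, nearer to that of WT. Hist1h4k stood at 0.996 FPKM in WT and 2.32 FPKM in GluN1, with a log2 fold of 1.22 (p = 0.0345, q = 0.526 in the authors' deposited table). No H4 model passed the threshold, and all 6 tested ones had log2 folds above 0, with a median of 0.78. Hist1h4h stood at 1.15 FPKM in WT and 1.90 FPKM in GluN1 (log2 0.73). Hist1h4d stood at 0.290 FPKM in WT and 0.726 FPKM in GluN1 (log2 1.33), and Hist1h4j at 0.260 FPKM in WT and 0.399 FPKM in GluN1 (log2 0.61). These last pairs are low values, below 1 FPKM. Neither Hist1h4d nor Hist1h4j was tested for GluN1Cre against WT, so their entry into testing can favour a fold above 0 here. The single tested H3 model, Hist2h3c1, stood at 1.54 FPKM in WT and 2.33 FPKM in GluN1 (log2 0.60). A pair of merged H3 models from the Hist2 cluster lay close to it: Hist2h2bb,Hist2h3b at 1.45 FPKM in WT and 2.41 FPKM in GluN1, and Hist2h2aa2,Hist2h3c2 at 1.13 FPKM in WT and 1.76 FPKM in GluN1. For Hist2h2bb,Hist2h3b the second table gives a GluN1 level of 1.71 FPKM, also nearer to that of WT.

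Sums over the members depend less on how reads were split between copies. Summed histone FPKM was 98.5 in WT and 126 in GluN1, 1.28-fold higher (log2 0.36). This sum and that of the 5 highest models include the model merged with Bola1. Over single-symbol models only, the log2 ratio was 0.37. By class, the log2 ratio of the sums was 0.68 for H1, 0.26 for H2A, 0.29 for H2B, 0.62 for H3 and 0.69 for H4. The H1 sum rests mostly on the called Hist1h1c model, and the H3 sum on Hist2h3c1. The 5 highest models together stood at 79.6 FPKM in WT and 97.3 FPKM in GluN1 (log2 0.29), and the 48 others at 18.9 FPKM in WT and 29.1 FPKM in GluN1 (log2 0.63). Thus the abundant models had the smaller ratio and carried most of the summed difference. By cluster, the log2 ratio was 0.48 for Hist1, 0.37 for Hist2 and 0.25 for Hist3. No test was made on these sums.

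The 33 untested member models were at most 0.404 FPKM, the GluN1 value of the H4 gene Hist1h4c. Of the 22 with a value above 0 in both groups, 17 were higher in GluN1 and 5 lower, 7 were listed at 0 in WT only and 4 at 0 in GluN1 only.

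**Figure D2:**
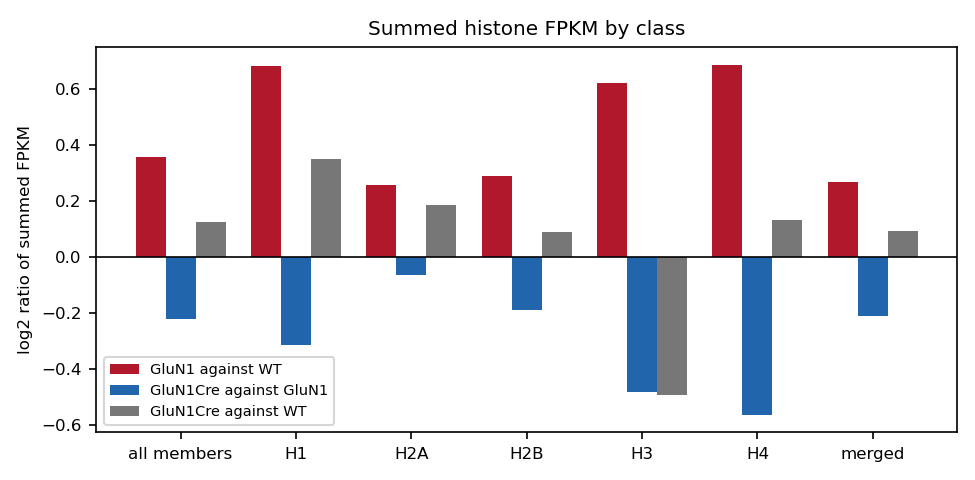
Log2 ratio of FPKM summed over the members of each histone class, for GluN1 against WT (red), GluN1Cre against GluN1 (blue) and GluN1Cre against WT (grey); "merged" holds models that join several genes. The H1, H3 and H4 sums have the larger ratios in GluN1 against WT (0.68, 0.62 and 0.69). In that comparison Hist1h1c makes up most of the H1 sum and Hist2h3c1 most of the H3 sum. The H3 bar of GluN1Cre against WT rests on a sum below 1 FPKM.

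No model of the other lists of histone biology was called in the knockdown, beside 2.52% of all 18417 tested models. At that share, a count of 0 in lists this short says little. Of 12 tested models of replication-independent histones, whose mRNAs are mostly polyadenylated, Cuffdiff called 0 (1 at an unadjusted p under 0.05), and their median log2 fold was -0.01. The H3.3 gene H3f3b stood at 52.3 FPKM in WT and 59.1 FPKM in GluN1, and its sister H3f3a at 49.6 FPKM in WT and 52.3 FPKM in GluN1. H1fx had the largest difference of that list, at 12.6 FPKM in WT and 7.96 FPKM in GluN1 (log2 -0.66), and was not called. Its GluN1 level in the comparison with GluN1Cre was 34.0 FPKM, so its level differs widely between the comparisons. Of 24 tested models for histone mRNA processing, Cuffdiff called 0 (0 at an unadjusted p under 0.05), with a median of -0.02. Slbp, the stem-loop binding protein gene, stood at 10.97 FPKM in WT and 10.88 FPKM in GluN1. Among the most abundant genes of that list, the Sm protein genes Snrpd3 and Snrpb stood at 53.0 and 49.3 FPKM in WT and at 50.3 and 43.2 FPKM in GluN1. Of 22 tested models of histone chaperones, which carry histones to DNA, Cuffdiff called 0 (0 at an unadjusted p under 0.05), with a median of -0.01. Of 24 tested models of S phase and mitosis, Cuffdiff called 0 (1 at an unadjusted p under 0.05, lower), with a median of 0.03. The replication clamp gene Pcna stood at 7.67 FPKM in WT and 7.43 FPKM in GluN1, and Top2a, a topoisomerase of dividing cells, at 0.384 FPKM in WT and 0.358 FPKM in GluN1.

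Some RNAs that are not normally polyadenylated rose beside the members. Of 6 tested models on that list, 3 rose and none fell, with a median log2 fold of 0.90. Rmrp, the RNA of RNase MRP, stood at 1.43 FPKM in WT and 9.32 FPKM in GluN1 (log2 2.71, q = 0.022 in the authors' deposited table). Rpph1, the RNA of RNase P, stood at 1.24 FPKM in WT and 7.31 FPKM in GluN1 (log2 2.56, q = 0.0117 in the authors' deposited table). Rn45s, the ribosomal RNA precursor, stood at 618 FPKM in WT and 1087 FPKM in GluN1 (log2 0.81, q = 0.00456 in the authors' deposited table). The other 3 models, a second Rn45s model, Scarna2 and Scarna13 merged with its host gene Snhg10, were not called. The part of RNA without a poly(A) tail in the histone values was not tested.

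Markers of some other cells and regions also differed between GluN1 and WT, in either direction. Of 12 tested models of olfactory bulb markers, 11 rose, with a median log2 fold of 1.52, and their summed level was 72.4 FPKM in WT and 173 FPKM in GluN1. Of 12 tested models of neuroblast markers, 6 rose (among them the neuroblast genes Dcx, Dlx2 and Cd24a), with a median of 0.50 and a summed level of 82.6 FPKM in WT and 106 FPKM in GluN1. All 11 bulb and all 9 neuroblast markers had a value above 0. Of 10 tested models of striatal medium spiny neuron markers, 5 fell, and the summed level was 193 FPKM in WT and 167 FPKM in GluN1. Cortical excitatory neuron markers, led by the vesicular glutamate transporter gene Slc17a7 at 626 FPKM in WT and 598 FPKM in GluN1, summed to 798 FPKM in WT and 753 FPKM in GluN1, and 1 of 9, Fezf2, fell. Among markers of oligodendrocyte precursors and of microglia, Cuffdiff called 0 of 8 each (0 at an unadjusted p under 0.05), and of 5 blood models the alpha globin model Hba-a1,Hba-a2 rose. The part of these cells in the histone values was not tested, and in bulk tissue more cells of a type and more RNA per cell cannot be told apart.

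**Figure D3:**
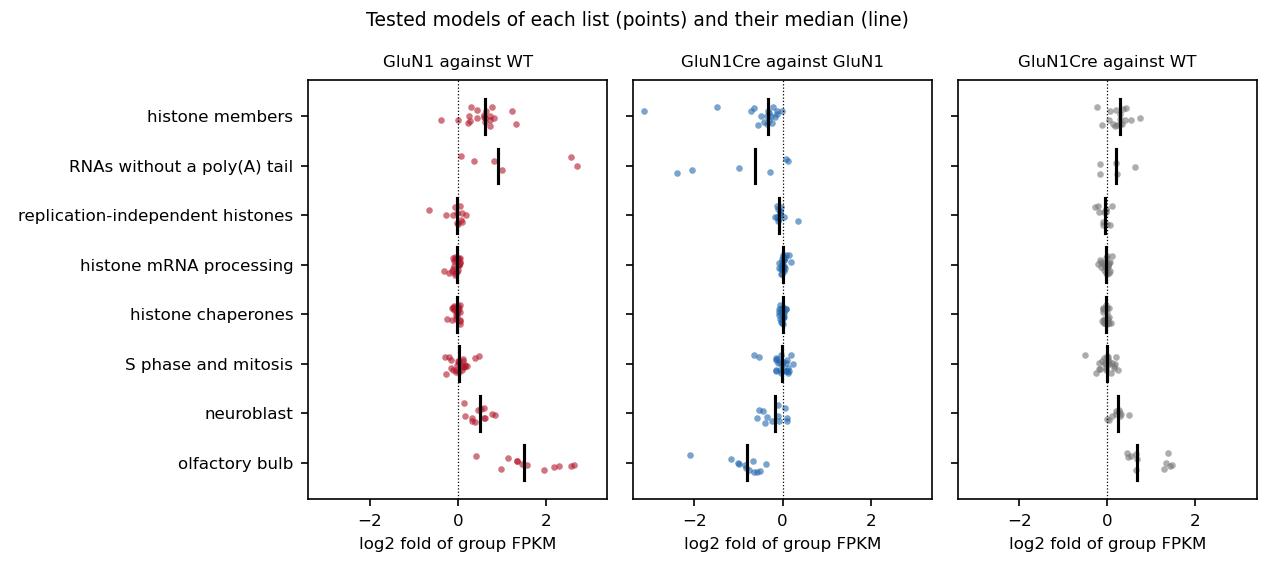
Log2 fold of group FPKM for each tested model (points, spread vertically for visibility) and the median of each list (line), in the 3 comparisons. In GluN1 against WT the histone members (median 0.61), the RNAs without a poly(A) tail (0.90), neuroblast (0.50) and olfactory bulb (1.52) models lie mostly to the right of 0, while the other 4 lists centre on 0.

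In rescue against knockdown, no member passed the threshold. Cuffdiff called 0 of 19 tested member models, beside 0.689% of all 18430 tested models (0.130% higher and 0.559% lower). At an unadjusted p under 0.05, 3 of 19 were lower and none higher, beside 3.01% of all tested models lower and 1.18% higher. The log2 fold was below 0 in 19 of 19 member models, beside 52.8% of all tested models and 54.6% of those with a mean FPKM under 5. The median was -0.33 over the members and -0.0056 over all tested models. This comparison shares the GluN1 group with the first one, so the values are given side by side and the directions are not independent. For Hist1h2bn, Hist1h4d and Hist1h4j, tested only where GluN1 was included, entry into testing can favour a fold below 0.

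The linker histone gene Hist1h1c stood at 11.2 FPKM in GluN1 and 8.91 FPKM in GluN1Cre, with a log2 fold of -0.33 (p = 0.0022, q = 0.243 in the authors' deposited table). The merged Hist1h1e,Hist1h2be model stood at 1.91 FPKM in GluN1 and 1.70 FPKM in GluN1Cre (log2 -0.17). Both models called in the knockdown had a rescue level between their WT and GluN1 levels of the first table, without a call. The H4 gene Hist1h4i stood at 3.81 FPKM in GluN1 and 2.45 FPKM in GluN1Cre, with a log2 fold of -0.64 (p = 0.0268, q = 0.915 in the authors' deposited table). Hist1h4j stood at 0.400 FPKM in GluN1 and 0.143 FPKM in GluN1Cre, with a log2 fold of -1.49 (p = 0.0125, q = 0.662 in the authors' deposited table). The lowest log2 fold, -3.13, was that of Hist1h4d, at 0.736 FPKM in GluN1 and 0.0838 FPKM in GluN1Cre, again a pair of low values without a call. The 6 tested H4 models had a median log2 fold of -0.59, and the 5 of H2B one of -0.24.

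The 3 most abundant members had log2 folds nearer to 0 than the median of the members. Hist3h2ba stood at 35.0 FPKM in GluN1 and 30.2 FPKM in GluN1Cre (log2 -0.21), Hist1h2bc at 27.1 FPKM in GluN1 and 24.7 FPKM in GluN1Cre (log2 -0.13), and Hist3h2a at 17.5 FPKM in GluN1 and 17.2 FPKM in GluN1Cre (log2 -0.02). Summed histone FPKM was 126 in GluN1 and 108 in GluN1Cre (log2 -0.22). By class, the log2 ratio of the sums was -0.31 for H1, -0.06 for H2A, -0.19 for H2B, -0.48 for H3 and -0.56 for H4. Of the 21 untested member models with both values above 0, 4 were higher in GluN1Cre and 17 lower.

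Beside these values, Rmrp stood at 9.40 FPKM in GluN1 and 2.27 FPKM in GluN1Cre, Rpph1 at 7.39 FPKM in GluN1 and 1.41 FPKM in GluN1Cre, and Rn45s at 1176 FPKM in GluN1 and 596 FPKM in GluN1Cre. All 3 fell at the threshold used here, with Rmrp at q = 0.0522 in the authors' Cuffdiff test. Of 12 tested bulb models, 10 fell, with the summed level at 171 FPKM in GluN1 and 107 FPKM in GluN1Cre. Of 12 neuroblast models, 1 (Dlx2) fell, with the sum at 104 FPKM in GluN1 and 90.2 FPKM in GluN1Cre. Of 9 tested striatal models, Penk fell, and 3 of 5 blood models rose, with the blood sum at 115 FPKM in GluN1 and 165 FPKM in GluN1Cre. Cuffdiff called 0 of the 12 tested models of replication-independent histones (median -0.08), 0 of 24 for histone mRNA processing (0.01), 0 of 21 for chaperones (0.00) and 0 of 24 for S phase and mitosis (-0.02). At an unadjusted p under 0.05 these 4 lists held 0, 0, 0 and 1 models. The part of the moving RNAs and markers in the histone values was not tested.

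**Figure D4:**
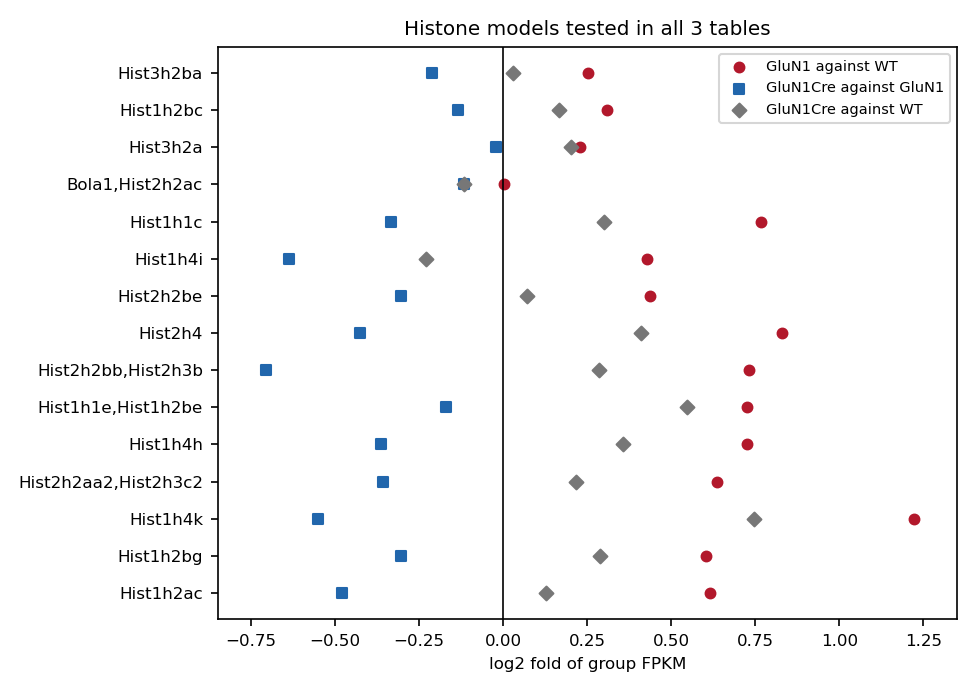
Log2 fold of group FPKM of the 15 histone models tested in all 3 tables, highest level at the top, for GluN1 against WT (red circles), GluN1Cre against GluN1 (blue squares) and GluN1Cre against WT (grey diamonds). Each pair of comparisons shares a group, so the 3 points of a row are not independent; for Hist1h1c they lie at 0.77, -0.33 and 0.30.

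In rescue against wild type, no member passed the threshold either. Cuffdiff called 0 of 17 tested member models, beside 0.841% of all 18429 tested models (0.364% higher and 0.478% lower). At an unadjusted p under 0.05, 2 of 17 were higher and none lower, beside 1.82% of all tested models higher and 2.50% lower. The log2 fold was above 0 in 15 of 17 (88.2%), beside 46.6% of all tested models and 53.8% of those with a mean FPKM under 5. The median was 0.28 over the members and -0.0080 over all tested models. The models past the unadjusted limit were the same ones called in the knockdown, and both comparisons share the WT group. Hist1h1c stood at 6.21 FPKM in WT and 7.63 FPKM in GluN1Cre, with a log2 fold of 0.30 (p = 0.0429, q = 0.9999 in the authors' deposited table). The merged Hist1h1e,Hist1h2be model stood at 1.14 FPKM in WT and 1.67 FPKM in GluN1Cre, with a log2 fold of 0.55 (p = 0.00115, q = 0.126 in the authors' deposited table).

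The most abundant member, Hist3h2ba, stood at 29.2 FPKM in WT and 29.8 FPKM in GluN1Cre. Hist1h2bc stood at 21.8 FPKM in WT and 24.5 FPKM in GluN1Cre (log2 0.17), and Hist3h2a at 14.7 FPKM in WT and 16.9 FPKM in GluN1Cre (log2 0.20). The H4 genes were spread, with Hist1h4i at 2.995 FPKM in WT and 2.56 FPKM in GluN1Cre (log2 -0.23) and Hist1h4k at 0.984 FPKM in WT and 1.65 FPKM in GluN1Cre (log2 0.75). Hist2h4 stood at 1.72 FPKM in WT and 2.29 FPKM in GluN1Cre (log2 0.41). In the comparison with GluN1, its GluN1Cre level was 1.52 FPKM, below that of WT. The GluN1Cre level of Hist2h2bb,Hist2h3b was 1.05 FPKM beside GluN1 and 1.78 FPKM beside WT. That of Hist1h1c was 8.91 FPKM beside GluN1 and 7.63 FPKM beside WT. For such genes, the place of the rescue relative to WT depends on the comparison read. Over the 15 models found in all tables, the second table's GluN1 value was 0.656 to 1.08 times that of the first, with a median of 1.01; the lowest ratios were those of Hist2h4 (0.656) and Hist2h2bb,Hist2h3b (0.711).

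Summed histone FPKM was 99.0 in WT and 108 in GluN1Cre (log2 0.13). By class, the log2 ratio of the sums was 0.35 for H1, 0.19 for H2A, 0.09 for H2B and 0.13 for H4. The H3 sum was only 0.642 FPKM in WT and 0.456 FPKM in GluN1Cre, because Hist2h3c1 is merged with Hist2h2aa2 in this table, and that model stood at 1.56 FPKM in WT and 1.98 FPKM in GluN1Cre. Rmrp stood at 1.45 FPKM in WT and 2.25 FPKM in GluN1Cre, and of the 5 tested RNAs without a poly(A) tail Cuffdiff called 0 (1 at an unadjusted p under 0.05, lower). Of 11 tested bulb models, 9 rose, of 10 neuroblast models 1 (Dcx) rose, of 10 striatal models 7 fell, and of 5 blood models 3 rose. Cuffdiff called 0 of the 12 tested models of replication-independent histones, 0 of 23 for histone mRNA processing, 0 of 22 for chaperones and 0 of 25 for S phase and mitosis, and at an unadjusted p under 0.05 these 4 lists held 0, 0, 0 and 1 models. The part of the moving markers in the histone values was not tested.

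Many H2A and H2B genes lie head to head and share the stretch between their start sites. Within 500 bases, 14 such pairs were found, with start sites 173 to 306 bases apart, and 5 had a tested partner for GluN1 against WT. Sharing this stretch did not go with equal levels in these libraries. Hist1h2bc and Hist1h2ac start 251 bases apart, and in WT stood at 21.7 FPKM and 0.270 FPKM, an 80.5-fold difference. Hist3h2a and the H2B pseudogene Hist3h2bb-ps start 173 bases apart, and in WT stood at 14.8 FPKM and 0.0885 FPKM, a 167-fold difference. Counting single-gene models, 4 pairs had both partners above 0 in WT, with folds from 2.45 to 167. The pair Hist2h2ac and Hist2h2be, 239 bases apart, is left out of these folds, since Hist2h2ac was measured only in the model merged with Bola1 (7.71 FPKM in WT, beside 2.26 FPKM for Hist2h2be). The stretch before the RefSeq start of Hist1h2ac, which reaches to the start of Hist1h2bc, is shown because this is the one pair with both partners tested as single-gene models (log2 0.62 and 0.31 in the knockdown). That of Hist1h1c is shown as the promoter of the called single gene. Capitals mark the motifs described next, on either strand, in RefSeq sequence of GRCm38.p6.
Hist1h2ac (chr13:23683960-23684209, minus strand): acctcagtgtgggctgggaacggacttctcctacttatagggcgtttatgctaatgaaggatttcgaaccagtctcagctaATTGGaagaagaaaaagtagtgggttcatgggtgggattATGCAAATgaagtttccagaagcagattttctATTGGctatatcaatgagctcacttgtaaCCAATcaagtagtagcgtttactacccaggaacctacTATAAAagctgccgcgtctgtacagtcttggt
Hist1h1c (chr13:23738557-23738806, plus strand): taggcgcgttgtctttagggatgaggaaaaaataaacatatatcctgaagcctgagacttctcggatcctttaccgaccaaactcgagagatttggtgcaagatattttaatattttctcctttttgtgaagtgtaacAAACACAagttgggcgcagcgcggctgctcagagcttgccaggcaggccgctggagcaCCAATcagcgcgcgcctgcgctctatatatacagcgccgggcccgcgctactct

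The motifs searched in the 250 bases before the start, on both strands, were the CCAAT box (CCAAT), the TATA box (TATAAA), the octamer (ATTTGCAT) and the H1 box (AAACACA), and 52 of the 58 members were matched to a RefSeq promoter. CCAAT was present in 42 of the 52 (80.8%), beside 34.5% of all 27025 RefSeq promoters, in every matched H1, H2A and H2B promoter and in 3 of 11 of H4. TATAAA was present in 26 of the 52, beside 3504 of all 27025. The octamer, known from H2B promoters, was present in 10 (19.2%), beside 1.61%, with 6 of H2A and 4 of H2B. Windows of head-to-head H2A and H2B partners overlap and were searched on both strands, so the same site can count for both. The octamer of Hist1h2aa and Hist1h2ba is the same site, and so is that of Hist1h2ae and Hist1h2bg. The motif counts are therefore not independent between partners. The H1 box was present in 8 (15.4%), beside 6.22%, and in 5 of the 6 H1 promoters. The promoters of the linker histone genes Hist1h1c, which was called, and Hist1h1e, which is part of the called merged model, both held the H1 box, 112 and 115 bases before the start, and a CCAAT box, 54 and 52 bases before it. That of Hist1h2be, the other gene of the merged model, held no H1 box. A match describes the letters of the window and shows no binding.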

How the data were processed

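The 12 libraries (4 per group) were compared in 3 tables that the authors deposited. Per the submitters' processing notes, the tools were Cuffdiff 2.2.1.3 and Cufflinks 2.2.1.0, with TopHat2 2.1.0, TopHat and FastQC 0.65, and both GRCm38 and mm10 are named as build. Strandedness and the handling of reads with several matches are not given in the sources used here. Per the file headers, each table holds the authors' FPKM of both groups. Per the file headers, it also holds the authors' p-value and q-value from Cuffdiff. Depth per sample is unknown. With 1 value per group, no test of group differences was computed here. Log2 folds were recomputed from the deposited FPKM without a pseudocount, over models with status OK. Medians, sums and counts were made with Python 3.11.15, pandas 2.3.3, numpy 2.4.6 and matplotlib 3.10.9, and the counting steps were tested on simulated data. Named were members called or with a mean FPKM of at least 1 in any table, the highest of each class, and Grin1. From each list up to 4 called genes and the 2 most abundant were picked, and only some of these are named. All lower members that were tested, Slbp, H1fx, Top2a, Dlx2, Fezf2 and the divergent pairs were chosen after their values were seen. The members and all lists were chosen with earlier results of these data known, so the lists of bulb markers and of RNAs without a poly(A) tail are not independent support. Alternatives tried were a stricter q, the authors' flag, a mean FPKM of at least 1, single-symbol models, a pseudocount of 1, centring on all tested models, tested models only, and leaving out the highest member.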

Additional observations from a re-analysis of the deposited data

How the results depend on the processing

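Of 39 alternatives, 35 gave the same result, 4 moved and 0 reversed. Those on the count of called models could only keep or lower it. Where 0 members were called, as in both comparisons with GluN1Cre, they could only return 0. The authors' flag marked the same models as the stricter q, so these settings repeat each other. A median or log2 ratio was said to move at a shift above 0.1, and a count at a factor above 1.5. Centring shifts values by the median of all tested models (-0.0033, -0.0056 and -0.0080), so it could not move them either. The tally is therefore no measure of robustness. With single-symbol models only, the count of histone models called for GluN1 against WT was 1 in place of 2, since the Hist1h1e,Hist1h2be model is merged. With a pseudocount of 1, which shrinks the fold of low models by construction, the median log2 fold was 0.32 for GluN1 against WT (0.61 without it), -0.21 for GluN1Cre against GluN1 (-0.33) and 0.18 for GluN1Cre against WT (0.28). The log2 ratio of summed FPKM stayed between 0.35 and 0.40, between -0.23 and -0.21, and between 0.13 and 0.17 under its alternatives. No paired analysis was possible because the tables hold 1 value per group and none per animal. For the same reason the alternatives that leave out a replicate or test over animals were not run. Read depth is unknown, so how far low members can be told from 0 is not known either.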
